A study of Mus musculus with 2 samples.

Results

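Peaks of DNase I cutting at the 3' ends of protein-coding genes are the subject here. In DNase-seq, nuclei are treated with the enzyme DNase I, which cuts where chromatin is open, and the cut ends are sequenced. The tissue was the gastrocnemius, a calf muscle of mostly fast-twitch fibres, from male mice of strain B6CASTF1/J, the F1 hybrid of C57BL/6J and CAST/EiJ, aged 25 days. No treatment or mutation is named, and there is 1 group with 2 libraries, labelled biological replicates 1 and 2. They come from separately numbered males whose labels carry the same donor identifier, and no sorting of cells is named. Sequences printed here are the reference, which is C57BL/6J, and the CAST/EiJ allele was not looked at. A peak was taken when it was called in replicate 1, overlapped a replicate 2 peak by at least 1 bp, had its midpoint within 1 kb of the 3' end of a protein-coding gene and outside coding sequence, and lay over 1 kb from the start of every annotated gene (GENCODE release M21 on mm10). This left 855 peaks, 0.877% of the 97499 replicate 1 peaks and 1.72% of the 49760 that replicate 2 shared. Of the 1873 shared peaks with a midpoint within 1 kb of a 3' end, 835 were left out because a gene start lay within 1 kb and 183 because the midpoint fell in coding sequence. The 855 peaks form 839 separate regions, since 30 of them overlap another of the set, and 56 share their replicate 2 partner with another peak of the set and so carry the same replicate 2 value.

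The 3' end of a coding gene is where the transcript is cleaved and polyadenylated, usually a short way past the hexamer AATAAA. RNA polymerase II goes on past that point before it lets go, so the DNA around a 3' end is transcribed when the gene is active. Accessible sites in such places can be enhancers of the same or another gene, insulator sites bound by CTCF, the zinc-finger protein that anchors chromatin loops, or starts of transcripts that an annotation lacks. DNase-seq of whole muscle reads myofibre nuclei together with those of satellite cells, fibroblasts, vessels and nerve, so more cells of a type and a more open site per cell cannot be told apart.

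The deposited signals were whole multiples of a step of 0.00591 in replicate 1 and 0.00854 in replicate 2 (100% of the distinct values, within 0.1 of a whole number). Read as tags in a window scaled to library size, they correspond to libraries of 169 M and 117 M tags, to 222 and 154 tags at the median of the 855 peaks, and to counting errors of 6.71% and 8.06%. That reading comes from the values alone. Promoters of all 8 myofibre markers looked up (Ckm, Acta1, Mylpf, Tnnt3, Actn3, Myod1, Ttn and Ryr1) had a peak shared by the libraries, while none of the promoters of the leukocyte genes Ptprc and Cd68, the adipocyte gene Adipoq, the red-cell gene Hbb-bs and the hepatocyte gene Alb did. Shared promoter peaks were also present at the satellite cell gene Pax7, the endothelial gene Cdh5, the fibroblast genes Pdgfra and Col1a1, the mural cell genes Myh11 and Pdgfrb and the neuronal gene Snap25, and the part of these cell types in the results was not tested.

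Many of the peaks held a CTCF site by sequence. A match to the CTCF consensus was present in the central 150 bp of 138 of the 855 peaks, or 16.1% (Wilson 95% interval 13.8 to 18.8%). All intervals on shares here are of this kind and cover counting error only. The 4 strongest such peaks whose site lies outside every annotated untranslated region are shown with the match in capitals, because nearly all of these sites also carried a footprint in both libraries. They lie on mm10 at chr6:124903720-124903791 (plus strand, 580 bp past the end of Lag3 by peak midpoint), chr15:101145534-101145605 (minus strand, 265 bp past Acvrl1), chr12:111668500-111668571 (plus strand, 790 bp past Ckb) and chr8:105622536-105622607 (plus strand, 352 bp past Ripor1).
Lag3: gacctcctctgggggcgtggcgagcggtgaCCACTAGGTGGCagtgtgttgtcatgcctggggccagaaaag
Acvrl1: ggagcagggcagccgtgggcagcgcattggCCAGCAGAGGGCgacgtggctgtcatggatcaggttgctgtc
Ckb: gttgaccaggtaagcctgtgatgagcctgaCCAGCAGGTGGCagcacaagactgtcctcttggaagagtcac
Ripor1: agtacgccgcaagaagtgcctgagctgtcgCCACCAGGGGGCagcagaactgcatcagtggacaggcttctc

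Each of those 4 matches overlapped a footprint, a stretch of lowered cutting inside a peak that the authors called, in replicate 1 and in replicate 2. The peak past Lag3, a gene for a T-cell inhibitory receptor, had signals of 6.12 and 7.13 in replicates 1 and 2. The peak past Acvrl1, which encodes an endothelial receptor of the BMP family, had 7.06 and 5.74. The peak past Ckb, the brain-type creatine kinase, had 5.92 and 5.36. At Ripor1 the values were 4.93 and 6.03. In all 4, both libraries lay well above the median of the set (1.31 in replicate 1 and 1.32 in replicate 2). The strongest peak with a match lay in the untranslated region of Dand5, which encodes a secreted inhibitor of Nodal, with signals of 7.12 and 9.43, and Frmd8 had one in its untranslated region with 6.49 and 6.72.

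Over the 141 matches in the set, 97.9% (93.9 to 99.3%) overlapped a replicate 1 footprint and 96.5% (92.0 to 98.5%) a replicate 2 footprint, and 134 did so in both. Peaks with a match had median signals of 1.60 and 1.83 in replicates 1 and 2, against 1.26 and 1.26 for peaks without one. The share with a match was 16% (14.7 to 17.4%) in the 2845 shared peaks 1 to 5 kb from a 3' end, so the peaks at 3' ends did not stand out from their surroundings. It was 8.60% in the 15214 shared peaks inside genes over 5 kb from any 3' end, 12.1% in the 10315 intergenic peaks as far away, and 2.54% in the 19203 shared peaks at gene starts. Over all 29229 shared peaks away from gene starts and coding sequence it was 10.8%.

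The CTCF consensus is not symmetric, so each match has a direction. Past the 3' end, 56 of 82 matches, 68.3% (57.6 to 77.4%), read on the strand of the nearest gene, and before it 30 of 59 did, 50.8% (38.4 to 63.2%). The intervals of these shares overlap. Between 1 and 5 kb from the end the shares were 62.7% (56.4 to 68.5%) of 241 matches downstream and 44.2% (37.8 to 50.9%) of 217 upstream, with no overlap. Among intergenic peaks over 5 kb away they were 59.0% downstream and 41.1% upstream of the nearest 3' end. The downstream excess of same-strand sites was therefore present at every distance looked at and is not particular to the first kb.

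Some of the strong peaks past 3' ends sit on transfer RNA genes, which RNA polymerase III transcribes from a promoter inside the gene. This was looked up after the strongest peaks had been seen, in RefSeq's annotation of the same assembly, since tRNA genes are not among the GENCODE genes whose starts the rule avoids. Of the 855 peaks, 9 overlapped one of 403 nuclear tRNA genes, or 1.05% (0.555 to 1.99%), and all 9 lay past the end of the coding gene on chromosome 11. The tRNA genes under the strongest peak of 4 of these coding genes are printed from RefSeq's sequence, in the direction of tRNA transcription, with the letters GTTCNANNC of the internal B box in capitals, because each overlapped a footprint there in both libraries. They are at chr11:69110919-69111000 (plus strand, past Per1, serine tRNA), chr11:115413304-115413376 (minus strand, past Mrpl58, arginine tRNA), chr11:69124241-69124322 (plus strand, past Hes7, leucine tRNA) and chr11:97988923-97988994 (minus strand, past Arl5c, cysteine tRNA).
Per1: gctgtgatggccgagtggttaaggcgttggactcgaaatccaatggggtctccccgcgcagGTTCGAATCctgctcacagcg
Mrpl58: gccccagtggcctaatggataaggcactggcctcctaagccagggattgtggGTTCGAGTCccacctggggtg
Hes7: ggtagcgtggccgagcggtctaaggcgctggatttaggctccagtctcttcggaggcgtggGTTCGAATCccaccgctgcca
Arl5c: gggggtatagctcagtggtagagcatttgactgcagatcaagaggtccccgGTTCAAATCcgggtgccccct

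The peak 971 bp past Per1, a repressor of the circadian clock, had signals of 5.24 and 6.69. The one 727 bp past Mrpl58, which encodes a mitochondrial ribosomal protein, had 4.97 and 6.46. At Hes7, a gene of the segmentation clock, they were 3.82 and 4.95, and at Arl5c, a small GTPase of the ARF family, 3.68 and 4.09. Replicate 2 was the higher library in all 4. The remaining tRNA peaks lay past Ctc1 (2 peaks), Borcs6, Per1 and Mrpl58. Over the 9, median signals were 3.60 and 4.09, against 1.30 and 1.31 for the other peaks of the set. The share of peaks on a tRNA gene was 0.914% (0.624 to 1.34%) between 1 and 5 kb from a 3' end, 0.756% (0.606 to 0.943%) in intergenic peaks over 5 kb away and 0.0854% (0.0499 to 0.146%) inside genes as far away. The interval of the set overlaps the first 2 of these. The B box letters on their own are common: searched on both strands, they occurred in the central 150 bp of 5.26% of the set and of 5.38% of the peaks 1 to 5 kb away. Because tRNA genes repeat one another, between 13.9% and 58.9% of the 31-letter words in these 9 peaks also occurred elsewhere in the reference, and the part of repeated sequence in their signal was not tested.

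Myogenic genes had accessible sites past their ends as well. The 2 shown here were picked after their values were seen, because they belong to muscle genes and carry CAGCTG, an E-box of the kind that MYOD1 binds. These lie at chr7:46379121-46379300 (plus strand, the whole peak 112 bp past Myod1, the master regulator of muscle fate) and chr11:98385141-98385340 (plus strand, the central part of the peak 288 bp past Tcap, which encodes the titin cap protein telethonin). Capitals mark CAGCTG and the SP/KLF letters GGGCGG.
Myod1: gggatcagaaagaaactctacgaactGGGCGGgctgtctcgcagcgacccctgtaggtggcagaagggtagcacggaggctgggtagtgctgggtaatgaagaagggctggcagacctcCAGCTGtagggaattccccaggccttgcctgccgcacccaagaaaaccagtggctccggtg
Tcap: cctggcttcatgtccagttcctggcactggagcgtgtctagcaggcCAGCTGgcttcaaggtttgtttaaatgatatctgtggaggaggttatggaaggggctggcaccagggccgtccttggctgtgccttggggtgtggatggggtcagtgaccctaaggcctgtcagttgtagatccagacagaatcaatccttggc

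At Myod1 the signals were 1.85 and 1.5, close to the 2.28 and 1.73 of its promoter peak, and its E-box overlapped a footprint in both libraries. At Tcap the signals were 2.47 and 2.20, above the promoter's 1.65 and 1.69 in each library, and its E-box overlapped a footprint in replicate 2 only. Over the set, CAGCTG was present in the central 150 bp of 175 peaks, 20.5% (17.9 to 23.3%), against 16.6% (15.2 to 18%) between 1 and 5 kb from an end and 20.8% inside genes farther away. The first of these intervals touches the second. Of its 193 occurrences, 34.7% overlapped a replicate 1 footprint, 28.0% a replicate 2 footprint and 34 both. These shares lie below those of the CTCF matches with no overlap of the intervals (28.4 to 41.7% in replicate 1 and 22.1 to 34.7% in replicate 2), and the shorter motif also has fewer bases with which to touch a footprint. Sertad1, a regulator of cyclin-dependent kinase activity, had the strongest peak with this motif outside Lag3 and Frmd8, with 6.45 and 5.94.

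The other motifs were searched in the same 150 bp on both strands, save AATAAA, which was searched on the strand of the gene. The SP/KLF letters GGGCGG were present in 16.7% (14.4 to 19.4%) of the set, 15.4% of the peaks 1 to 5 kb away and 48.8% of promoter peaks. The TEAD letters GGAATG stood in 9.12%, against 9.45% of all shared peaks away from gene starts and coding sequence. RUNX (TGTGGTT) stood in 4.21% against 2.82%, AP-1 (TGACTCA or TGAGTCA) in 3.74% against 5.52%, ETS (CCGGAAG) in 3.04% against 1.93%, and AATAAA in 2.81% against 2.48%. The rarer motifs are set against the same peaks. The glucocorticoid receptor consensus stood in 10 peaks (1.17% against 2.08%), MEF3 (TCAGGTTNC) in 6 (0.702% against 0.825%) and the CArG box in 5 (0.585% against 0.653%). NRF1 stood in 4 (0.468% against 0.677%) and the MEF2 consensus in 3 (0.351%, 0.119 to 1.03%, against 1.20%). NFI stood in none, against 0.103%, and the Wilson interval allows a share of up to 0.447%. The MEF2 matches were at Npffr1, Nol12 and Fam189a2, named after their values were seen, and 2 of the 3 overlapped a footprint in replicate 1 and 0 in replicate 2. A match is a description of the letters and does not show that the factor was bound.

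**Figure D1:**
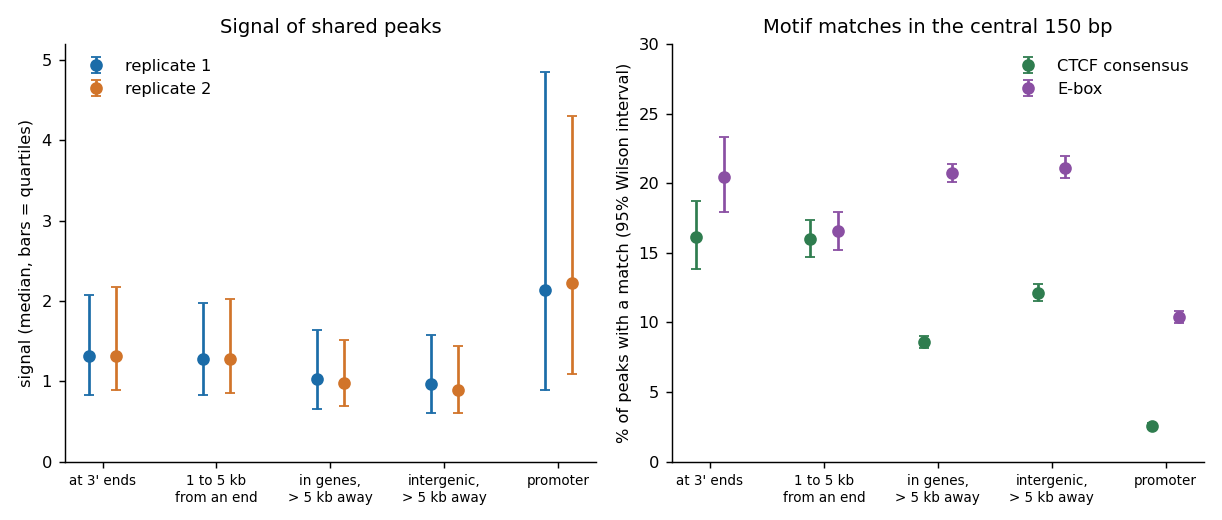
Left, median signal (points) and quartiles (bars) of shared peaks by class in each library; right, percent of peaks of each class with a CTCF or E-box match in the central 150 bp, with Wilson 95% intervals. The 855 peaks at 3' ends, with medians of 1.31 and 1.32 and a CTCF share of 16.1%, lie beside the peaks 1 to 5 kb away (1.28 and 1.28, 16%), and promoter peaks have the highest medians and a CTCF share of 2.54%.

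Shared peaks were slightly denser within 1 kb of an end than farther out, but sparser in the last stretch before it than in the bins beside it. Counted per Mb of sequence that could hold a peak under the rule, there were 24.6 shared peaks within 1 kb of a 3' end and 22.7 between 1 and 5 kb, a ratio of 1.08. With replicate 2 peaks the ratio was 1.05. With every peak of a library, shared or not, it was 1.06 in replicate 1 and 1.09 in replicate 2 (1.08 ± 0.0248, SD, n = 2). The excess in the first kb was thus small in each library.

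In the last 250 bp before the end there were 73 shared peaks, or 16.6 per Mb, fewer than in the bins of 250 bp on either side. The bin before it had 107 peaks (26.2 per Mb) and the bin just past the end 119 (25.0 per Mb). Replicate 2 peaks gave 16.3, 23.5 and 24.2 per Mb in these bins. With every peak of a library this bin had 33.8 (replicate 1) and 27.5 (replicate 2) per Mb. In the latter library several bins over 1 kb upstream were lower, down to 24.7. Shared peaks were nearly as sparse from 3250 to 3000 bp before the end, at 17.6 per Mb with replicate 1 peaks and 16.5 with replicate 2 peaks. The same dip was seen without peak calls, in the share of bases with a listed false discovery rate (the deposited lists hold positions with q below 0.05). In the last 100 bp before the end 0.829% of eligible bases were listed in replicate 1 and 0.739% in replicate 2, against 1.39% and 1.04% from 1000 to 200 bp before and 1.41% and 1.05% from 100 to 1000 bp after. GC content moved with it: it was 36.3% in the last 100 bp, 44.0% from 1000 to 200 bp before and 44.5% from 100 to 1000 bp after. Its part in the dip was not tested.

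Genes with a shared promoter peak had more listed bases around their 3' ends than genes without, in both libraries. From 100 to 1000 bp past the end, 1.83% and 1.33% of bases were listed in replicates 1 and 2 at genes with a promoter peak, against 0.867% and 0.691% at genes without. In the last 100 bp the shares were 1.02% and 0.869% with a promoter peak, against 1.66% and 1.19% from 1000 to 200 bp before. Without a promoter peak they were 0.540% and 0.542%, against 0.960% and 0.805%. In replicate 2, genes without a promoter peak had shares as low elsewhere, down to 0.463% from 1500 to 1400 bp before the end.

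**Figure D2:**
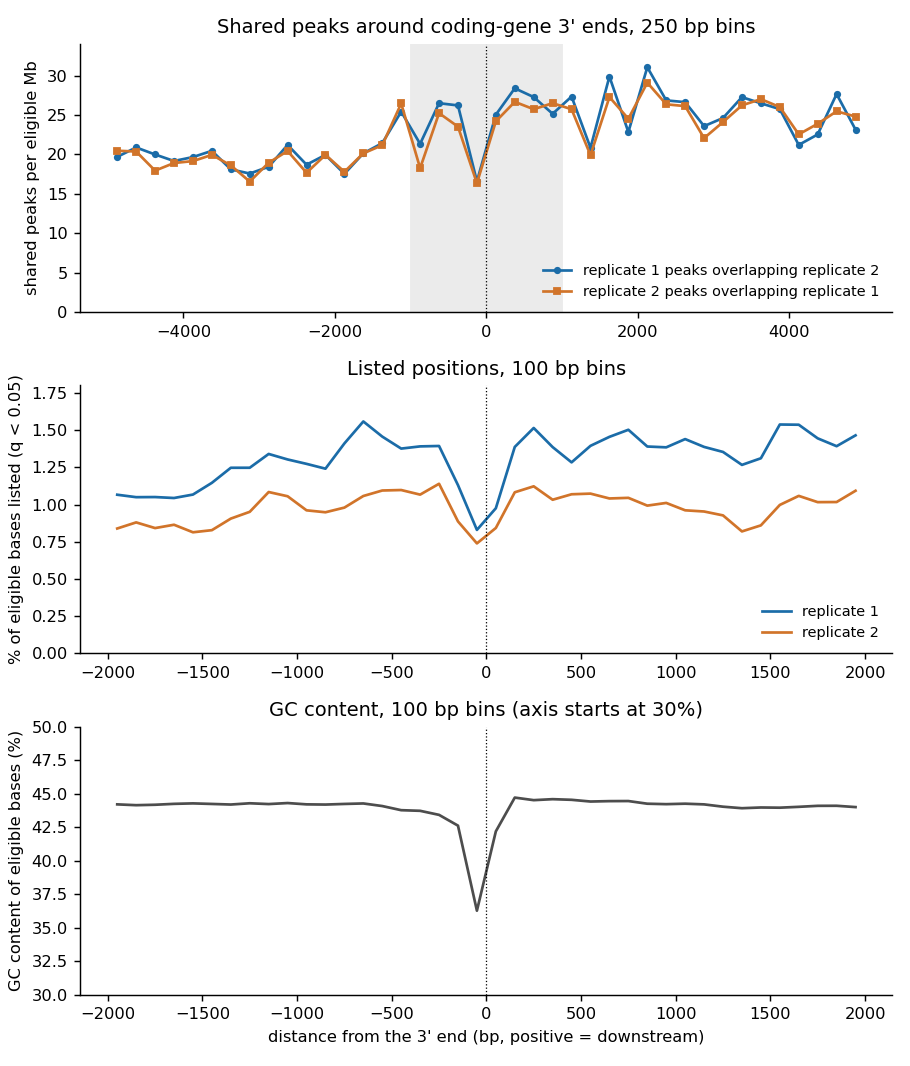
Top, shared peaks per Mb of eligible sequence in 250 bp bins around the nearest coding 3' end, for replicate 1 and replicate 2 peaks (the 1 kb zone is shaded); middle, percent of eligible bases listed with q below 0.05 in 100 bp bins; bottom, GC content of the same bases on an axis that starts at 30%. All 3 fall just before the end, to 16.6 and 16.3 peaks per Mb, 0.829% and 0.739% of bases, and 36.3% GC.

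More of the peaks lay past the end than before it. The midpoint was downstream in 487 peaks (57%, 53.6 to 60.2%) and upstream in 368. Per Mb of eligible sequence the numbers were 26.5 downstream and 22.5 upstream, a ratio of 1.18 (1.24 with replicate 2 peaks). From 1 to 5 kb away the ratio was 1.28. With every peak of a library the ratio within 1 kb was 1.05 in replicate 1 and 1.10 in replicate 2, so it was smaller without the demand that peaks be shared. Of the upstream peaks, 289 of 368 had their midpoint in an untranslated region, and of the downstream peaks 382 of 487 were intergenic. In all, 318 peaks (37.2%) lay in an untranslated region, 29 in an exon of a noncoding gene or transcript, 126 (14.7%) in an intron and 382 (44.7%) between genes. Medians of signal were 1.38 and 1.37 downstream and 1.22 and 1.25 upstream. At 56 peaks a coding gene on the opposite strand also ended within 1 kb, with medians of 1.56 and 1.42 against 1.30 and 1.31 for the rest. The rule leaves out the starts of genes but not of every transcript: 83 peaks (9.71%) lay within 1 kb of some annotated transcript start, with medians of 1.5 and 1.51, and 58 (6.78%) within 1 kb of a gene start in RefSeq, with 1.8 and 2.07.

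In signal the set lay between promoters and the remaining distal peaks. The medians were 1.31 and 1.32 (mean 1.31 ± 0.00197, SD, n = 2 libraries), with quartiles of 0.831 and 2.07 in replicate 1 and of 0.897 and 2.18 in replicate 2. Peaks 1 to 5 kb from an end had medians of 1.28 and 1.28, and the gap to them was a small part of the spread among peaks. Peaks inside genes over 5 kb from an end had 1.03 and 0.983, intergenic ones 0.970 and 0.889, and promoter peaks 2.14 and 2.22. The order of these classes was the same in each library. The set also lay closer to gene starts, at a median of 6539 bp, than the peaks inside genes (15158.5 bp) and the intergenic ones (16469 bp), and the part of this in the signal was not tested. The median width was 200 bp and the median GC content 56.7%, against 65.3% in promoter peaks.

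The strongest peaks were of several kinds. At Lars2, the mitochondrial leucyl-tRNA synthetase, a peak at chr9:123461901-123462100 in the untranslated region had signals of 34.6 and 57.1, and 62.9% of its 31-letter words occurred elsewhere in the reference. A peak in the predicted gene Gm10722 on chromosome 9 had 17.1 and 50.4, and all of its words were repeated. The ceramide synthase gene Cers5 had 31 and 40.1 at chr15:99735661-99735920, before its end, with no repeated word and 1 footprint of 9 bp in each library. These were the 3 highest in each library, and the next highest value was 14 in replicate 1 and 11.6 in replicate 2.

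Next came Ctdsp1, a small phosphatase of the RNA polymerase II tail, with 14 and 9.78 at chr1:74397361-74397580, 186 bp past its end. Replicate 1 was the higher library there, and also at Fam120a (9.42 and 7.52, 428 bp past the end), Sec14l2 (10.5 and 5.25, 308 bp past), Pheta2 (7.94 and 6.53, 248 bp past) and the ubiquitin ligase March2 (8.52 and 5.80, 211 bp past). Pheta2 and March2 each had a transcript start within 1 kb. At 1700001O22Rik the values were 7.14 and 11.6, 98 bp past the end. None of these 6 held a repeated word.

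At the other end of the range, the weakest was a peak 520 bp past Ezr, the membrane linker ezrin, with 0.154 and 0.265, or about 26 and 31 tags. Gm8113 had 0.154 and 0.325, Acap3 had 2 peaks with 0.260 and 0.316 and with 0.313 and 0.308, and Ces5a had 0.248 and 0.376. Of these 5, the peaks at Ces5a and Acap3 had 1 or 2 footprints in replicate 1, and none had one in replicate 2. Only 13 of the 855 peaks (1.52%) had over 50% of their words repeated, against 0.844% of the peaks 1 to 5 kb away, and 789 (92.3%) had none.

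**Figure D3:**
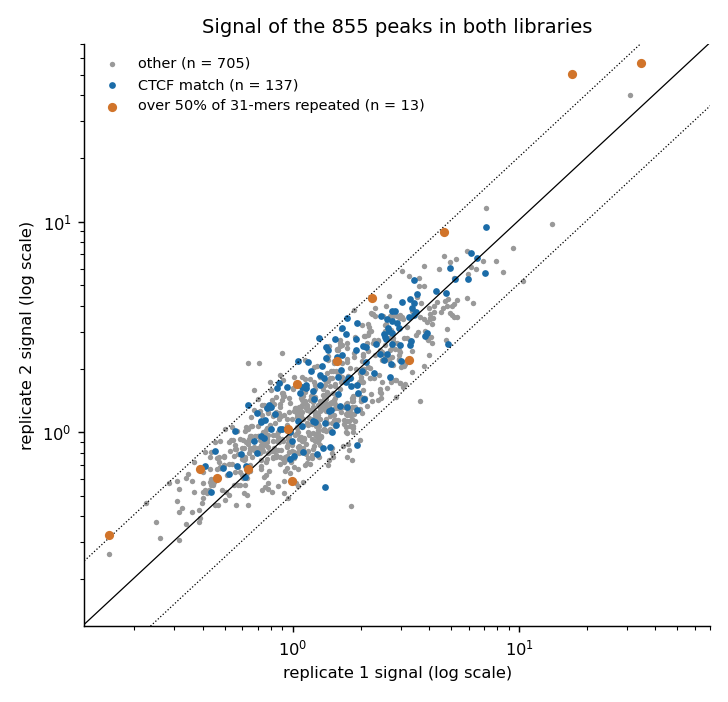
Replicate 2 against replicate 1 signal of each of the 855 peaks on log axes, with peaks that hold a CTCF match and peaks with over 50% repeated 31-letter words marked apart; the solid line is the median ratio of all shared peaks and the dotted lines are 2-fold from it. Signals run from 0.154 to 34.6 in replicate 1 and from 0.265 to 57.1 in replicate 2, and 28 peaks lie outside the dotted lines.

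The libraries ranked the peaks alike, with 0.840 for Spearman's rho and, on log2 signals, 0.872 for Pearson's r over the 855 pairs, which share libraries and are not independent. Set on the median log2 ratio of all shared peaks, 13 peaks (1.52%, 0.891 to 2.58%) were more than 2-fold higher in replicate 1 and 15 (1.75%, 1.07 to 2.87%) in replicate 2. Over all 49760 shared peaks the shares were 2.49% and 2.88%, so the set held no more such peaks than the rest. With 1 library per replicate, a difference at 1 peak has no replicate check and no test is given.

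The widest gap towards replicate 1 was 196 bp past Mrpl22, which encodes a mitochondrial ribosomal protein, with 1.81 and 0.444. Reep4 (3.64 and 1.41), Riok2 (1.39 and 0.547), Thbs4 (1.83 and 0.735, the thrombospondin of muscle and tendon matrix) and Pigq (1.73 and 0.760) followed. Towards replicate 2 the largest were Eva1b (0.633 and 2.13), C4bp (0.710 and 2.14), Gm10722, Nkx6-3 (0.899 and 2.38) and Chp1 (0.674 and 1.59). The Eva1b peak lay within 1 kb of a transcript start. Its replicate 2 value of 2.13 is also the replicate 2 value of the gene's promoter peak, so both may have the same replicate 2 partner. The gap at Eva1b may then not be a gap at the 3' end. The peaks at Nkx6-3 and Chp1 were over 50% soft-masked repeat.

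Nearly every peak of the set held a footprint. The share was 95.2% (93.6 to 96.4%) in replicate 1 and 89.2% (87.0 to 91.1%) in replicate 2 (mean 92.2% ± 4.22, SD, n = 2), and 86.2% had one in both. Peaks 1 to 5 kb away had 94.1% and 90.6%. The share rose with signal: among the lowest 25% of replicate 2 signals of shared distal peaks 46 of 91 peaks of the set held a footprint, and among the highest 25% 334 of 335. The rise was smaller in replicate 1, from 111 of 129 to 305 of 309. In the lowest 25%, the set had 86.0% in replicate 1 and 50.5% in replicate 2. The other shared distal peaks there had a footprint in 78.6% and 61.6%. The 15 peaks with none in either library had medians of 0.408 and 0.564. By the lower of the counts of footprint bases in the libraries, the most covered were at Gm21887 on the X chromosome (108 and 102 bp, all words repeated), Atf6b (101 and 124 bp, an endoplasmic reticulum stress factor), Gm20721 (163 and 100 bp), Copz2 (125 and 99 bp, a coatomer subunit) and Susd2 (97 and 111 bp). The Gm20721 peak lay within 1 kb of a transcript start. The deposited footprint lists give no strength, so footprints are counted and not ranked.

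By gene, 806 of the 21938 protein-coding genes, 3.67%, had a peak of the set within 1 kb of their 3' end. Most of the 761 genes nearest to a peak had 1, 73 had 2, 9 had 3 and Gm20721 had 4. Overlapping peaks were counted singly: at Gm20721 each shorter peak lies inside a longer one, and those at Cyb561 overlap one another. A shared promoter peak was present at 70.3% (67.1 to 73.4%) of the 806 genes and at 57.7% (57 to 58.4%) of the other coding genes, and the gap held among genes over 3 kb long (70.3% and 61.1%). Where both existed the 3' peak was usually weaker than the strongest shared promoter peak of the gene. Each 3' peak was compared singly, weaker ones at the same gene included, which favours the promoter. Of 608 peaks with a shared promoter peak at the same gene, 450 lay below it in both libraries and 92 above it in both, and the median ratio was 0.382 in replicate 1 and 0.421 in replicate 2. Over these 608 peaks the signals at the ends and at the start had Spearman's rho of 0.135 and 0.103, which describes peaks that share libraries. Besides Lars2, Cers5 and Gm10722, the highest ratios were 5.29 in an intron at Thbs4, before its end (4.13 and 3.28, against 0.580 and 0.820 at the promoter) and 5.09 past Rap1gap, a GTPase-activating protein of RAP1 (2.83 and 3.79, against 0.633 and 0.666).

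Genes of muscle and of early responses to stimuli were looked up in 12 lists of 213 genes, of which 24 had a peak, and each count reads against the 3.67% of all coding genes. The lists are small, so the intervals are wide. Among 18 immediate early genes, which respond to stimuli within minutes, 5 had a peak (27.8%, 12.5 to 50.9%). Ier2 had 4.70 and 4.20 in its untranslated region and 0.929 and 1.04 just past the end. Zfp36, whose product speeds decay of AU-rich mRNAs, had 2.73 and 2.54 at 283 bp past the end. The MAP kinase phosphatase gene Dusp1 had 1.21 and 1.5, and the zinc-finger genes Klf6 and Klf4 had 0.680 and 0.957, and 0.485 and 0.530. All of these lay below the promoter peak of the same gene in each library.

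Of 18 myogenic regulators 4 had a peak (22.2%, 9 to 45.2%), among them Myod1, already described, Nfix and Mef2a. The peak at Nfix, a factor of the fetal muscle programme, had 1.26 and 1.47 and also lay within 1 kb of the end of Trmt1. At Mef2a, a MADS-box factor, it had 0.633 and 1.04. The ratio of mean signals to the promoter was 0.836 at Myod1, 0.599 at Nfix and 0.103 at Mef2a.

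Among structural genes of the fibre the shares lay above that of all coding genes, and the intervals of 2 of the 3 lists include it. Of 33 genes common to fibre types 3 had a peak (9.09%, 3.14 to 23.6%): Tcap, Acta1 and Dysf. Acta1, skeletal actin, had 1.8 and 1.81 at 348 bp past its end, against 3 and 1.69 at the promoter. Dysf, the membrane repair protein dysferlin, had 1.32 and 1.26 before its end and 1.11 and 0.846 past it. Of 14 slow-fibre genes 2 (14.3%, 4.01 to 39.9%) had a peak past the end, Tnni1 (slow troponin I, 1.63 and 3.11) and Myl2 (slow regulatory light chain, 0.692 and 1.23), and neither had a shared promoter peak. Of 14 fast-fibre genes 1 did (7.14%, 1.27 to 31.5%): Mylpf, the fast regulatory light chain, had 2 overlapping peaks that lie nearer to the end of Sept1. Replicate 2 was higher at both slow genes, and the gaps were under 2-fold. The Myl2 peak held a CTCF match that overlapped a footprint in both libraries.

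The remaining lists each had 1 or 2 genes with a peak. Of 16 clock genes these were Per1, which has the tRNA peak and another of 1.41 and 1.26, and Bhlhe40 (0.562 and 0.837). Of 20 growth and atrophy genes they were Akt1, the kinase of insulin signalling, with 2.61 and 2.99 at 480 bp past its end against 2.12 and 2.37 at the promoter, and Cebpd (0.769 and 1.05). Kdr, the endothelial VEGF receptor, had 1.57 and 2.50 against 1.34 and 1.36 at its promoter. Musk, the receptor kinase of the neuromuscular junction, had 1.30 and 0.769 at 38 bp past its end. Pgam2, muscle phosphoglycerate mutase, had 1.89 and 1.32, the matrix gene Bgn 0.308 and 0.470, and Gapdh 2.06 and 1.45 in the strongest of 3 peaks around its end, where the end of Iffo1 on the opposite strand also lies.

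**Figure D4:**
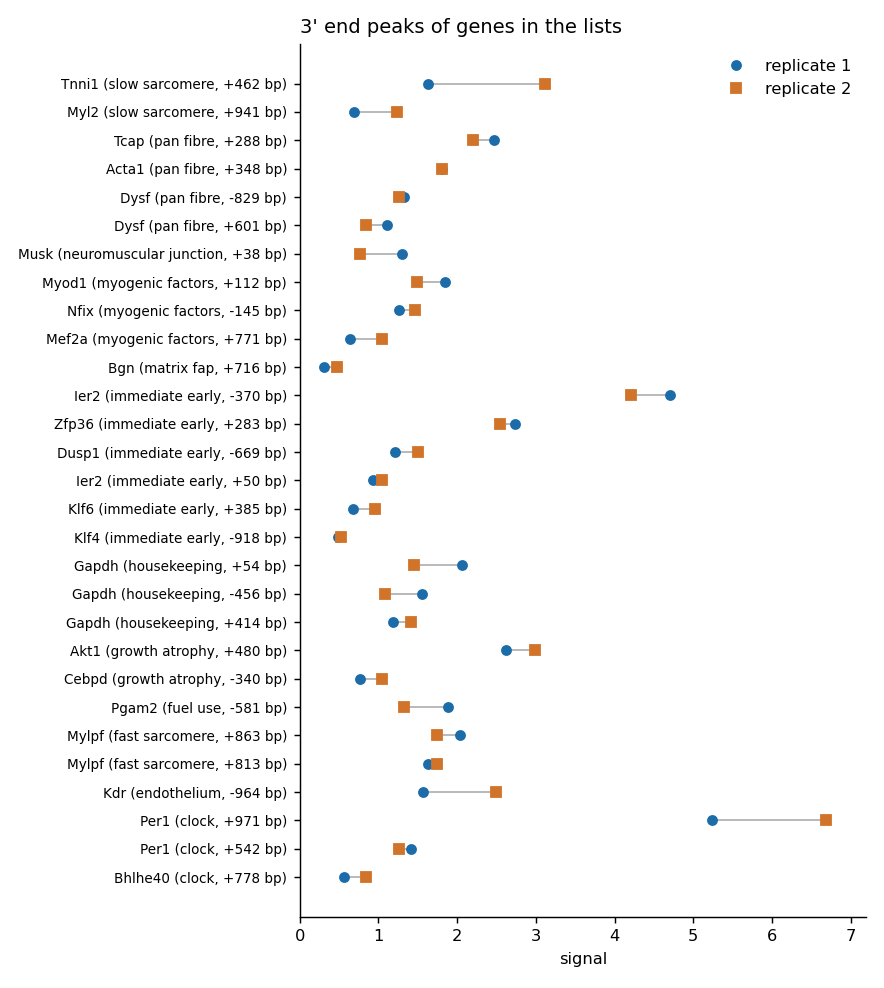
Signal in replicate 1 (circles) and replicate 2 (squares) of peaks within 1 kb of the 3' end of genes in the 12 lists (the peaks of 1 gene are not shown), with the list and the distance of the peak midpoint from the end (negative is before it). Per1 at 971 bp past the end is the strongest (5.24 and 6.69), followed by Ier2 (4.70 and 4.20), and most peaks lie below 3 in both libraries.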

How the data were processed

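DNase-seq of gastrocnemius from 2 libraries was analysed from the authors' lists on mm10, made per library per the deposited README notes. The aligner, peak caller and footprint caller: not given in the sources used here. Each deposited peak signal was used as it stands, in units that from the values look like tags scaled to library size. The deposited false discovery rates are q-values, listed only below 0.05, and the other column of the deposited footprint lists is constant and was not used. The longer (looser) peak list of each library was taken. Annotation was GENCODE M21, and sequence and tRNA genes came from RefSeq's copy of the same assembly (GRCm38). Members, gene lists and tests were chosen with earlier results of these data known. By the plan, named genes are the 10 strongest and 5 weakest peaks, up to 3 per list, the 5 with the highest ratio to the promoter, the 5 largest differences in each direction, the 5 with most footprint bases and the 3 strongest with a CTCF match or with a MEF2 or E-box match. More than 3 peaks are named from the immediate early list and from the list common to fibre types, beyond that plan. Eligible sequence lies outside coding sequence and assembly gaps, with a 200 bp window over 1 kb from every gene start. Promoter peaks lie within 1 kb of a gene start, and the strongest shared one stood for the promoter of a gene. Repeated sequence was counted as 31-letter words that occur more than once in the reference on either strand. With 1 group and 2 libraries no p-value was computed. Scripts used Python 3.11.15, numpy 2.4.6 and pandas 2.3.3, and the rule was checked on 400 simulated peaks, of which 24 met it and 0 were misclassed. Some items are not reported here.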

Additional observations from a re-analysis of the deposited data

How the results depend on the processing

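No paired analysis was possible because there is 1 group. Of 73 recomputed values 30 stayed within the spread between the libraries (counts, within 1.5 times) and 43 did not. The cause was not tested except where the setting itself fixes it. The spread was the SD of the reported value and the value from replicate 2 peaks. Both describe the same shared peaks, and the SD was small (0.00408 for the median signal, 0.141 points for the CTCF share). Save for counts, the replicate 2 setting lies beyond this SD by construction and adds to the 43. The density ratio stayed above 1 (1.05 to 1.14) and the downstream share above 50% (54.2 to 60.6%) in every setting run. The stricter lists gave 521 peaks at 508 genes, a median replicate 1 signal of 1.8, 59.3% downstream and 20.9% with a CTCF match. A reciprocal overlap of 50% gave a median of 1.43 and 19.7% with CTCF. A distance of 500 bp gave 431 peaks at 423 genes, a median of 1.39, a density ratio of 1.05 and 58.2% downstream. At 2 kb there were 1611 peaks at 1480 genes, a median of 1.28 and 16.6% with CTCF. Keeping clear of every transcript start gave a median of 1.29, a ratio of 1.14, 58.7% downstream and 16.8% with CTCF. Replicate 2 peaks gave a median of 1.31, footprints in 89.2%, a ratio of 1.05, 58.4% downstream and 16.3% with CTCF. The stronger 50% of shared peaks gave 464 peaks at 463 genes, a median of 2.01, a ratio of 1.12, 60.6% downstream and 20.04% with CTCF. A 300 bp window gave 16.8% with CTCF, and 1.5-fold in place of 2-fold gave 224 peaks differing between libraries in place of 28. At 1.5-fold, 10.8% of the set were higher in replicate 1 and 15.4% in replicate 2. Over all shared peaks these shares were 13.2% and 14.1%, so the 224 lie near the share of all shared peaks. With 1 library alone, counts ran from 1165 to 1676 peaks and from 978 to 1513 genes, medians from 0.787 to 0.974, footprints from 75.3% to 86.2%, density ratios from 1.06 to 1.10, downstream shares from 54.2% to 55.5% and CTCF shares from 11.6% to 11.8%. Without the 13 peaks of mostly repeated words, chosen after seeing the data, 842 peaks remained. All 8 results then stayed within the spread or, for counts, within 1.5 times. The density ratio of 1.07 in that setting still included the 24 such peaks between 1 and 5 kb from an end. Depth limits single peaks: at the median peak counting error alone was 6.71% and 8.06%.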

Other observations

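A few of the peaks lie in regions that RefSeq records as enhancers tested in mouse embryos. There were 5 such peaks, or 0.585% (0.250 to 1.36%) of the set, against 0.422% of shared peaks 1 to 5 kb from an end, 0.769% inside genes over 5 kb away and 0.989% of intergenic peaks as far away. The lookup was made after the peaks had been seen. Past Zfp36l2, an mRNA decay factor, 2 peaks with signals of 4.22 and 3.73 and of 1.06 and 1.01 lay in an enhancer recorded as active in the branchial arch. The peak before the end of the adaptor gene Skap2 had 3.82 and 2.85, in an enhancer recorded in the neural tube. The peak before the end of 1810010D01Rik had 1.91 and 2.00, and limb and heart are among the tissues recorded for its enhancer. The peak past Nuak2, a kinase of the AMPK family, had 1.33 and 0.957, and its enhancer is recorded in the hindbrain and forebrain.

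The peaks were unevenly spread over chromosomes. Chromosome 11 had 106 of them, at 5.80% of its coding genes, and chromosome 8 had 52, at 5.29%, against 3.67% of all coding genes. The X chromosome had 10, at 0.949% of its coding genes, and the Y chromosome had 0 at 183 coding genes, in mice that were male. On the X chromosome, the peaks at Mid1 and Gm21887 had 81.8% to 100% of their 31-letter words repeated in the reference. Shared peaks of all kinds were not counted by chromosome, so whether the unevenness is particular to the set was not tested. Clusters at 1 gene outside the gene lists included Atf6b, Crygn, Sema6c and Ier5l with 3 peaks each, and the homeobox gene Lbx1, a regulator of migrating muscle precursors, with 3 peaks of 0.615 to 1.04 in replicate 1 and 1.02 to 1.28 in replicate 2. They were picked out after their values were seen.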
